A study of Arabidopsis thaliana with 103 samples.

Results

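In 12-day-old Arabidopsis thaliana seedlings, 133 genes of the 33323 nuclear genes listed were low together in 7 mutant groups, morc6-3, morchex, phd1-2, phd1-4, mom2-2, aipp3-1 and aipp3-2. They included genes of sugar starvation and energy supply, enzymes that loosen and build the cell wall, touch-inducible calcium sensors and resistance genes of the TIR class. The level of a gene was its CPM, the estimated read count scaled to the same total in every library. A gene was a member when its mean CPM in the Col-0 control was at least 2 times the mutant mean plus 0.5 CPM in every one of the 7 groups. Of 10 clock, cold and defence genes that were set aside by name, 0 met this rule. The members were thus chosen by the CPM values of these 8 groups, and their differences are described here without a test. All 133 members have an entry in the RefSeq annotation. Of these, 130 are protein coding, AT4G28900 and AT4G06484 are pseudogenes, and AT5G36002 is a long non-coding RNA.

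The study concerned how the MOM1 complex, a plant silencing complex, relates to the MORC ATPases and to RNA-directed DNA methylation. RNA-seq was performed on whole seedlings of the Columbia-0 accession, with 14 groups of 3 libraries. All were grown with 16 h of light and 8 h of dark at 22 °C. The T-DNA insertion lines were morc6-3 in MORC6, mom2-1 and mom2-2 in MOM2, aipp3-1 and aipp3-2 in AIPP3, pial1-2 in PIAL1, pial2-1 in PIAL2, and nrpe1-11 in the largest subunit of RNA polymerase V. The pial1pial2 double mutant is called pial1/2 below, and morchex carries insertions in MORC1, MORC2, MORC4, MORC5, MORC6 and MORC7. The phd1-2 and phd1-4 lines hold single-base insertions in PHD1, made by CRISPR with Cas9 under the YAO promoter. There were 2 wild-type sets, the Col-0 control and the Col-0 for nrpe1-11. By its reporting summary the replicates were independent, and mutants were raised beside their controls. The hour of harvest and what a replicate number marks are not given in the sources used here.

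Estimated counts summed to between 13164594 and 33464598 per library, with a median of 19019362. A count of 0 therefore allows a level of up to 0.0896 to 0.228 CPM, taken as 3 counts and covering counting error only. The mutated gene was low in its line for morc6-3 (MORC6 4.86 ± 0.485 CPM against 11.7 ± 1.45 in the Col-0 control, SD, n = 3), mom2-1 (MOM2 0.0663 ± 0.0574 against 6.72 ± 0.529) and aipp3-2 (AIPP3 4.12 ± 0.558 against 35.5 ± 1.93). MOM2 was at 1.71 ± 0.496 CPM in mom2-2, and AIPP3 at 10.4 ± 0.202 in aipp3-1. PIAL2 was at 1.16 and 1.54 CPM in pial2-1 and pial1/2 against 11.3 in the Col-0 control, and NRPE1 at 3.55 in nrpe1-11 against 12.7 in its own Col-0. PIAL1 in pial1-2 (18.5 CPM against 18.17) and PHD1 in phd1-2 and phd1-4 (5.18 and 5.28 against 4.55) were not low in transcript, which does not check those labels. Shoot and root markers of a seedling were read in every group, while the seed markers CRA1 and OLEO1 stayed at or under 0.59 CPM in sum. Seedlings are a mixture of tissues, and fewer cells of a type cannot be told apart from less RNA per cell.

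Many of the members have textbook roles in how a plant senses its carbon status and its surface. When sugar runs short, cells switch on dark-inducible genes that release carbon from storage sugars and store nitrogen as asparagine. When a plant is touched, wounded or infected, calcium enters the cytosol, and within minutes calmodulin-like proteins, WRKY and DREB transcription factors and cell wall enzymes are transcribed. Xyloglucan endotransglucosylase/hydrolases and expansins remodel the wall so that cells can grow or stiffen. Many of these transcripts turn over quickly, and many also follow the time of day.

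The members were far apart between 2 sets of groups. The median member had a log2 ratio to the Col-0 control of -1.68 in morc6-3, -1.75 in morchex, -1.61 in phd1-2, -1.78 in phd1-4 and -1.65 in mom2-2. It was -1.34 in aipp3-1 and -1.38 in aipp3-2, while the median over all genes of at least 1 CPM in the Col-0 control lay between -0.05 and 0.07 in the 7 groups. Among those 19301 genes, the fold rule was met by 2.03% in morc6-3, 2.25% in morchex, 1.83% in phd1-2, 2.33% in phd1-4, 2.12% in mom2-2 and 1.03% in each of aipp3-1 and aipp3-2, and nothing is read from these shares since the rule made them. By contrast, the median member stood at -0.02 in mom2-1, 0.09 in pial1-2, -0.05 in pial2-1 and 0.09 in pial1/2, against -0.02 to -0.03 over all genes. The fold rule was met by 1 member in mom2-1 (0.057% of expressed genes), 2 in pial1-2 (0.135%), 1 in pial2-1 (0.207%) and 1 in pial1/2 (0.057%), and these were the pseudogene AT4G06484 and the jasmonate repressor JAZ7. The mom2-1 and pial lines shared the Col-0 control with the 7 groups, so these levels too are a description.

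**Figure D1:**
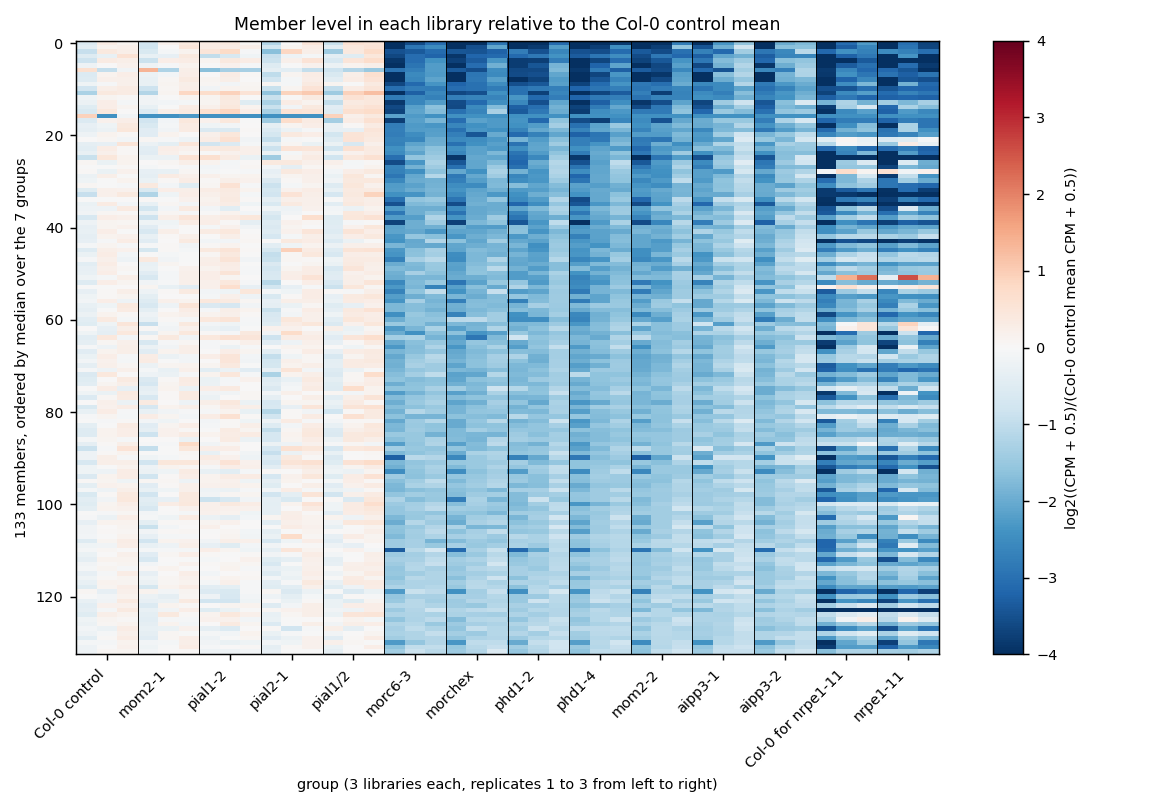
Level of each of the 133 members (rows, ordered by their median over the 7 groups) in each of the 42 libraries (columns, 3 per group), as log2 of CPM plus 0.5 over the Col-0 control mean plus 0.5, with blue for lower and red for higher. The columns of the Col-0 control, mom2-1 and the 3 pial groups are pale except in single rows such as those of AT4G06484 and JAZ7, and those of the 7 groups, of Col-0 for nrpe1-11 and of nrpe1-11 are blue, with a few pale or red rows in the last 2 groups.

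The separation was also seen in single libraries. The rule used the means of the Col-0 control and of the 7 groups. Counts that involve their libraries are thus largely set by the rule, and nothing is read from them. In 90 of the 133 members, all 15 libraries of the Col-0 control, mom2-1 and the pial lines lay above all 27 others, a pattern seen in 1.89% of expressed genes. The Col-0 control lay above all 21 libraries of the 7 groups in 130 members (6.22%), the exceptions being MIOX2, CML38 and AT4G06484. The 3 mom2-1 libraries lay above all 21 libraries of the 7 groups in 125 members (5.66% of expressed genes), pial1-2 in 129 (5.83%), pial2-1 in 113 (5.24%) and pial1/2 in 122 (5.51%). Both mom2 alleles disrupt the same gene, and they fell on opposite sides. The libraries of mom2-1 were above those of mom2-2 without overlap in 131 members (14.5% of expressed genes), and the reverse was found in 0 members (20.9%). Every member had to be low in mom2-2, a group of the rule, so these counts are no evidence of a difference between the alleles. Summed over the members, the 3 Col-0 control libraries held 18734 to 27317 CPM, mom2-1 held 18349 to 27452, and the 9 pial libraries 17483 to 29043. The 21 libraries of the 7 groups held 4392 to 11053 CPM.

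**Figure D2:**
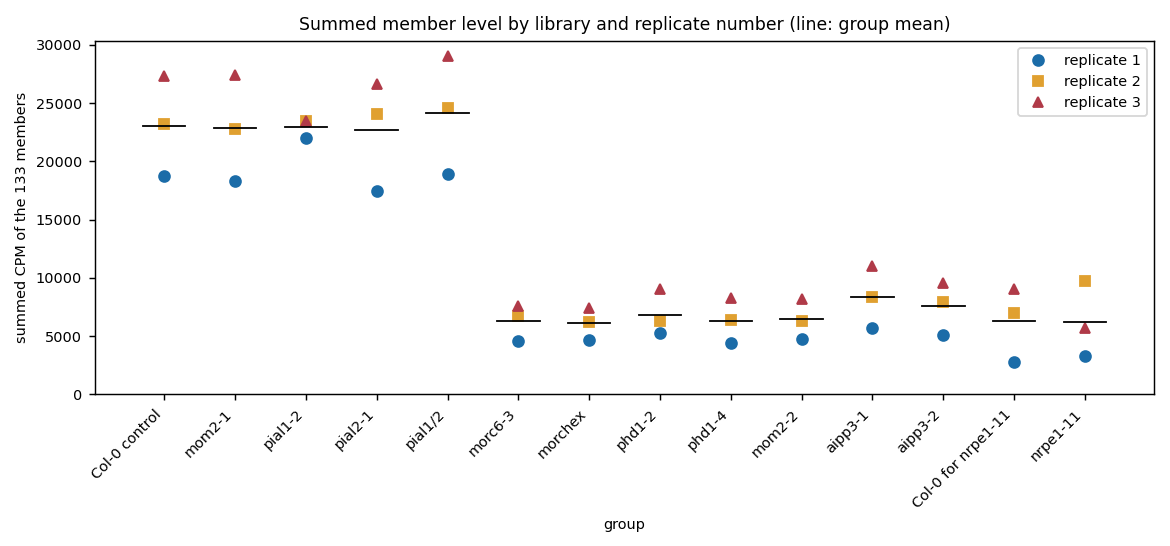
Summed CPM of the 133 members in each library, by group, with the marker shape for the replicate number and a line for the group mean. The 15 libraries on the left sit between 17483 and 29043 CPM, the 21 of the 7 groups between 4392 and 11053, and replicate 1 is the lowest point in 14 of 14 groups, by a factor of only 1.07 in pial1-2.

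The role groups used here were drawn up with the values known and are only a way to order the description. Genes of sugar and energy supply came to 12 members and had group medians of -1.97 to -1.32 on the log2 scale in the 7 groups and -0.15 to 0.07 in mom2-1 and the pial lines. DIN10 (AT5G20250, chr5:6833564-6836862, TAIR10.1, plus strand), a dark-inducible gene of the raffinose synthase family, was at 1476, 1674 and 2447 CPM in the Col-0 control and at 1214, 1785 and 2327 in mom2-1. Its 9 pial libraries ran from 1459 through a median of 1871 to 2346, and the 21 libraries of the 7 groups from 238 through 396 to 836, with no overlap. The Col-0 control mean of DIN10 was 3.09 (aipp3-1) to 5.44 (morc6-3) times the mutant mean.

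STP1, the main monosaccharide importer of the plasma membrane, and ASN1, the asparagine synthetase that is induced in darkness, had the same separation. STP1 (AT1G11260) was at 774, 853 and 1368 CPM in the Col-0 control, at 731, 908 and 1259 in mom2-1, and at 127 to 300.0 with a median of 212 in the 21 libraries. ASN1 (AT3G47340) was at 397, 461 and 854 CPM in the Col-0 control, at 466, 455 and 755 in mom2-1, and at 38.2 to 149.5 with a median of 66.1 in the 21 libraries. In ASN1 the Col-0 control mean was 4.98 to 10.3 times the mutant means, the largest smallest fold among the 12 genes of the group. AT3G15450, which encodes an aluminium-induced protein with YGL and LRDR motifs, had the highest level per length of all members, at 2450 TPM, a unit that corrects for transcript length, in the Col-0 control and 693 to 949 TPM in the 7 groups.

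BT1, BT2 and BT4 are scaffold proteins with BTB and TAZ domains that respond to sugar and nitrogen status, and 3 of the 5 genes of this family were members. BT2 (AT3G48360) was at 496, 390 and 511 CPM in the Col-0 control, at 473, 495 and 544 in mom2-1, and at 38.8 to 339 in the 21 libraries. Its lowest Col-0 control library thus lay above its highest mutant library. The remaining genes of the group were ERD6, a sugar transporter, ERD5, the proline dehydrogenase that burns proline for energy, the senescence and dormancy genes SEN1 and DYL1, and MIOX2, a myo-inositol oxygenase. DYL1 lay just inside the threshold, with a smallest ratio of 2.01.

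Cell wall and growth genes made up the largest named group, with 22 members and group medians of -1.83 to -1.41 in the 7 groups. TCH4 (AT5G57560), a touch-inducible xyloglucan endotransglucosylase, was at 1005, 1669 and 1652 CPM in the Col-0 control, at 1165, 1512 and 1865 in mom2-1, and at 841 to 2088 with a median of 1552 in the pial libraries. In the 21 libraries it ran from 27.7 through a median of 199 to 498 CPM. XTR6 (AT4G25810), of the same family, was at 22.3, 72.4 and 69.6 CPM in the Col-0 control and at 2.63 to 16.4 in the 21 libraries. The other 2 of the 4 members among the 26 expressed genes of this family were XTH4 and XTH9. The median smallest ratio of the 22 expressed relatives outside the set was 0.999. Of these relatives, 13 still had means below the Col-0 control in all 7 groups, with smallest ratios of at most 1.95.

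The EXORDIUM family, secreted proteins that promote cell expansion and respond to brassinosteroid, had 5 members among 7 expressed genes, EXO, PHI-1, EXL2, EXL3 and EXL5. PHI-1 (AT1G35140), named after a phosphate-induced tobacco gene, was at 211, 383 and 334 CPM in the Col-0 control, at 183, 347 and 401 in mom2-1, and at 4.10 to 103 with a median of 16.2 in the 21 libraries. Its Col-0 control mean was 5.25 (aipp3-1) to 26.7 (phd1-4) times the mutant mean, the widest range of folds apart from AT4G06484, which had group means of 0. EXO (AT4G08950) was at 315, 520.5 and 475 CPM in the Col-0 control and at 33.4 to 169 in the 21 libraries. The 2 expressed relatives outside the set had smallest ratios of at most 1.42.

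Other wall genes followed at lower levels. EXLA1 (AT3G45970), an expansin-like protein, was at 120, 270.4 and 249 CPM in the Col-0 control and at 12.0 to 78.8 in the 21 libraries, and EXLA2 was also a member. BXL1 and BXL2, xylosidases that trim xylan and arabinan, were 2 of 4 expressed genes of their family. LRX3, an extensin-like protein with leucine-rich repeats, THE1, a receptor kinase that senses wall damage, and RALFL22, a secreted peptide of the RALF family, belong to wall sensing. THE1 (AT5G54380) was at 114, 173 and 182 CPM in the Col-0 control, at 115, 172 and 185 in mom2-1, and at 37.7 to 81.8 in the 21 libraries. CSLC04 and XT1, which make the backbone and the side chains of xyloglucan, and SHV3, FLA9, GALS1 and WAKL2 completed the group.

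Calcium and stress signalling genes came to 16 members, with group medians of -1.84 to -1.25 in the 7 groups. TCH3 (AT2G41100), a calmodulin-like protein induced by touch, was at 515, 842 and 917 CPM in the Col-0 control, at 639.5, 701 and 915 in mom2-1, and at 14.6 to 338 with a median of 101 in the 21 libraries. WRKY18 (AT4G31800), a transcription factor of defence, was at 26.2, 65.5 and 58.9 CPM in the Col-0 control, at 32.4, 47.6 and 55.3 in mom2-1, and at 3.73 to 23.4 in the 21 libraries. All 15 libraries outside the 7 groups and the nrpe1-11 set were above the median of 5.34 CPM of the 21 libraries, although the lowest pial library, at 15.6 CPM, lay within their range. DREB26 (AT1G21910), an ethylene response factor, was at 55.8, 83.9 and 86.1 CPM in the Col-0 control and at 1.099 to 42.8 in the 21 libraries.

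**Figure D3:**
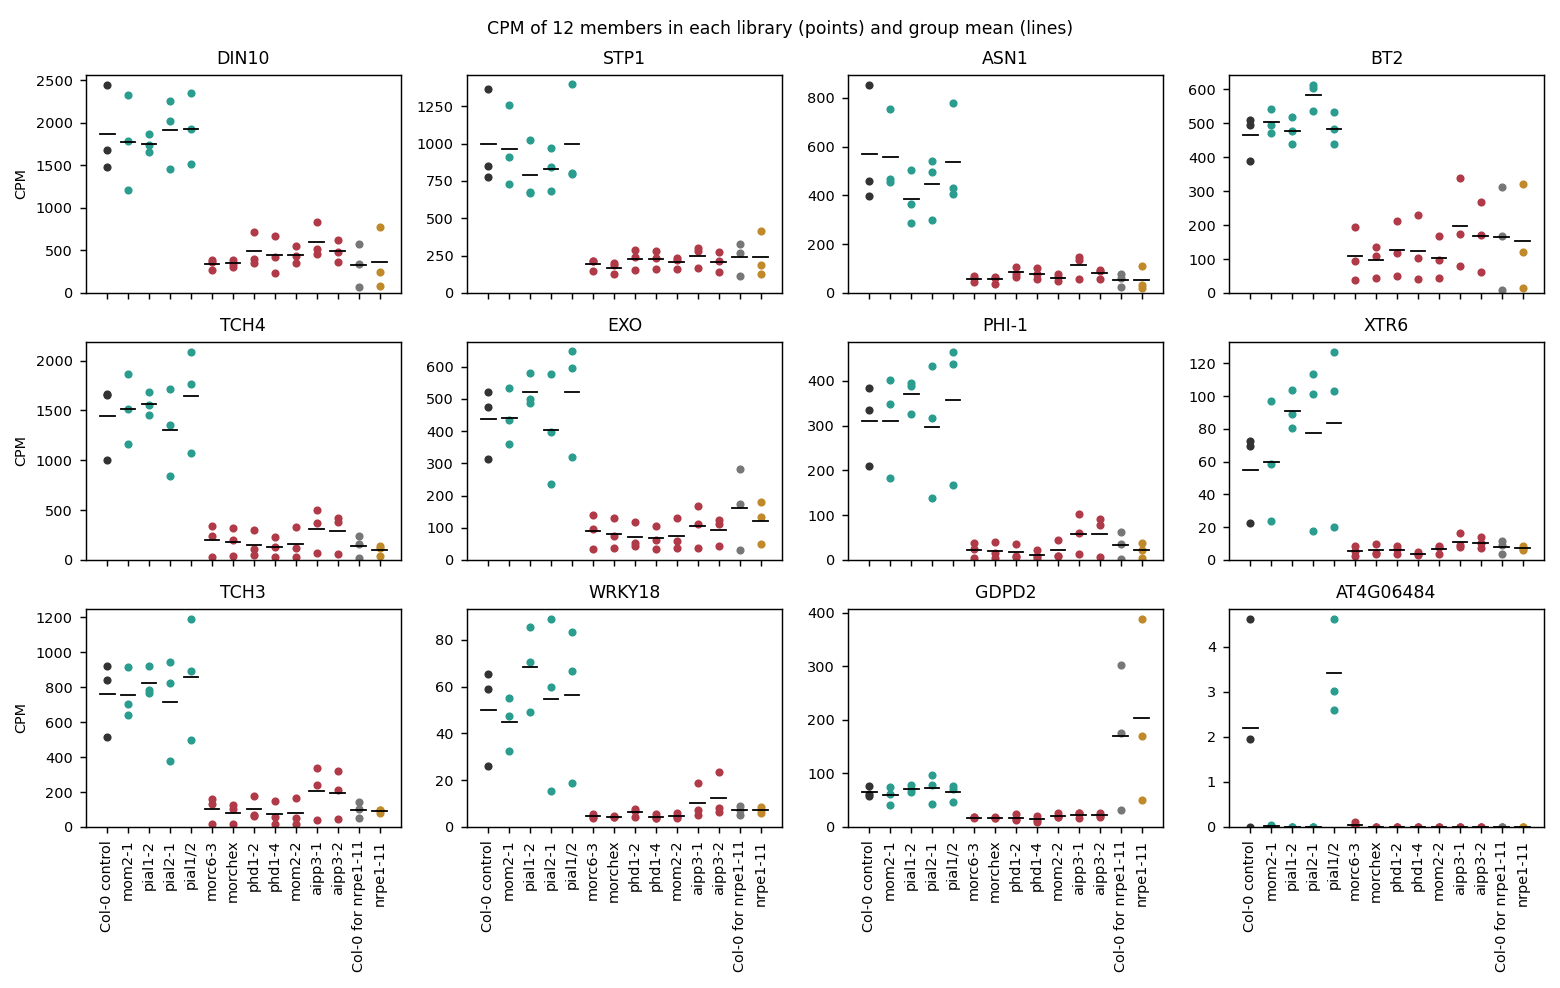
CPM of 12 members in each library (points) with the group mean (lines), for sugar and energy genes (top row), cell wall genes (middle row), and TCH3, WRKY18, GDPD2 and AT4G06484 (bottom row). The first 10 genes are high in the 5 groups on the left and low in the other 9, GDPD2 is at 31.8 to 389 CPM in the last 2 groups, and AT4G06484 is read mainly in the Col-0 control and pial1/2.

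The further signalling members include ERD15, an early dehydration gene, the calcium pump ACA1, the calcium-dependent kinase CPK28, the calmodulin-like CML38, the kinase CIPK15, the abscisic acid receptor PYL5, the ubiquitin ligase CMPG1 and the nudix hydrolase NUDT7. ERD15 (AT2G41430) was at 1062, 1220.3 and 1392 CPM in the Col-0 control and at 392 to 709 in the 21 libraries, a fold of only 2.11 to 2.34 at a high level. JAZ7 (AT2G34600), a repressor of jasmonate signalling, was at 14.9, 4.57 and 8.31 CPM in the Col-0 control, at 24.4, 3.67 and 11.0 in mom2-1, and at 0.174 to 3.70 in the 21 libraries. The mom2-1 library at 3.67 CPM and the lowest pial library, at 2.55 CPM, lay within the range of the 21 libraries.

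Of the TIR class of resistance genes, intracellular receptors of pathogen effectors, 6 were members, with group medians of -1.90 to -1.37. AT1G63860 (chr1:23701408-23706058, minus strand) was at 28.1, 33.6 and 32.5 CPM in the Col-0 control, at 28.3, 31.4 and 33.6 in mom2-1, and at 3.07 to 8.42 in the 21 libraries. It had a Col-0 control mean 5.04 to 8.32 times the mutant means, while AT1G63750 nearby on the same chromosome had 2.29 to 4.62 times. The family has 75 expressed genes, and the 69 outside the set had a median smallest ratio of 0.871. Of these 69, 24 had means below the Col-0 control in all 7 groups, so most genes of the family were not low in all 7. The TIR genes share stretches of sequence, and the split of reads between relatives was estimated and not observed.

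Regulators of transcription, hormones and light came to 6 members, GBF1, SPL13B, WRI4, PAR1, GA2OX2 and SOB5. GBF1 (AT4G36730), a bZIP factor that binds the G-box, was at 145, 177 and 221 CPM in the Col-0 control, at 144, 183 and 216 in mom2-1, and at 63.3 to 80.5 in the 21 libraries. PAR1, a repressor of shade responses, had the smallest ratio of all members at 2.01, with the next, DYL1 and AT3G47570, also at 2.01. The nearest genes outside the rule were MCCA just under the threshold (2.00 after rounding), JAZ5 at 1.99 and AT5G58120 at 1.99. SPL13B has a near-identical copy in the genome, so its level is uncertain.

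The other 71 members were not placed in a role and had group medians of -1.72 to -1.28. The protein kinase gene AT3G59350 had the largest smallest ratio of all, 5.55, with 112, 223 and 239 CPM in the Col-0 control and 20.8 to 44.5 in the 21 libraries. The purine permease gene PUP18 (AT1G57990) was at 267, 403 and 300.1 CPM in the Col-0 control and at 26.5 to 144 in the 21 libraries. In all, the smallest ratio was at least 4 in 7 members, at least 3 in 23, and under 2.5 in 84.

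Members made up 0.689% of expressed genes, so a count of 0 on a short list says little. The members held 0 of 11 evening clock genes, 0 of 14 morning clock genes, 0 of 20 cold genes, 0 of 18 salicylic acid defence genes, 0 of 11 heat shock genes and 0 of 12 flavonoid genes, although the evening clock, cold and salicylic acid lists hold the 10 genes set aside. They held 1 of 15 jasmonate and wounding genes, JAZ7, and 4 of 19 rapid stress genes, TCH4, TCH3, WRKY18 and CML38, or 22.2% of the 18 that were expressed. The rapid stress list as a whole had group medians of -1.37 to -0.61 on the log2 scale in the 7 groups. The medians of the evening clock list were -0.41 to -0.18, and those of the morning clock list 0.41 to 0.88, on the same scale.

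The 2 aipp3 groups were the least low. The smallest of the 7 ratios fell in an aipp3 group in 115 of the 133 members, 73 in aipp3-1 and 42 in aipp3-2. Both aipp3 means lay above the means of the 5 other groups in 88 members, a pattern seen in 26.2% of expressed genes. The libraries overlapped, however, and all 6 aipp3 libraries lay above the 15 others in 1 member only (1.15% of expressed genes). PHI-1 was at a mean of 58.9 and 58.5 CPM in aipp3-1 and aipp3-2 against 11.6 to 22.2 in the 5 other groups, and ASN1 at 115 and 80.8 against 55.6 to 84.2. The 4 flower markers AG, AP3, PI and SEP3 summed to 28.3 to 47.0 CPM in the 6 aipp3 libraries against 4.56 to 10.2 in the 15 others. Their sum was 6.02 to 6.82 CPM in the Col-0 control, 5.29 to 7.90 in mom2-1 and 6.98 to 19.1 in the 9 pial libraries. In the nrpe1-11 set it was 1.88 to 2.33 CPM. Whether the flower marker difference has a part in the member levels of aipp3 was not tested.

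The second wild-type set was low as well. In Col-0 for nrpe1-11, 115 members met the same fold rule against the Col-0 control (6.82% of expressed genes), and 118 did in nrpe1-11 (6.92%). The median member stood at -1.86 in Col-0 for nrpe1-11 and at -1.96 in nrpe1-11, lower than in any of the 7 groups. These contrasts use the Col-0 control and carry no test. TCH4 was at 16.8, 157 and 239 CPM in Col-0 for nrpe1-11 and at 38.01, 136 and 125 in nrpe1-11. DIN10 was at 67.5, 337 and 573 CPM and at 76.7, 777 and 247. The wild type of 1 set and the 7 mutant groups of the other were thus on the same side.

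The members that were not low there were few and of several kinds. GDPD2 (AT5G41080), a glycerophosphodiester phosphodiesterase gene of phosphate recycling, was at 57.9, 61.6 and 76.4 CPM in the Col-0 control and at 9.78 to 25.8 in the 21 libraries, but at 31.8, 175 and 303 CPM in Col-0 for nrpe1-11 and at 50.4, 389 and 170.2 in nrpe1-11. BT1 had mean levels of 321 CPM in the Col-0 control, 96.9 to 144 in the 7 groups and 300.4 in Col-0 for nrpe1-11. ERD5 stood at 225, 64.4 to 91.1 and 200.2 CPM in the same order, and WRR4, a TIR resistance gene against white rust, at 71.5, 20.5 to 27.9 and 55.3. In all, 18 members did not meet the fold rule in Col-0 for nrpe1-11, among them CIPK15, SEN1, XTH4 and the neighbours AT5G54710 and AT5G54720.

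Comparisons without any library of the rule were tested with edgeR's quasi-likelihood test, with calls at a 2-fold difference and an adjusted p (Benjamini-Hochberg, over all features tested) under 0.05. In nrpe1-11 against its own Col-0, 0 of 128 members tested were called, while 0.478% of all features were. At an unadjusted p under 0.05 there were 3 members, WRR4, CRK40 and AT4G19520, all lower in nrpe1-11. Without replicate 1 of its Col-0 there were 13, with a median log2 fold change of -0.31 over the members. Without replicate 3 of its Col-0 the median was 0.16 with 96 members above 0. The share of all features at an unadjusted p under 0.05 was not counted, so nothing is read from the counts of 3 and 13. DESeq2 called 1, the TIR resistance gene AT4G19520, with 13.8, 25.1 and 29.4 CPM in Col-0 for nrpe1-11 and 10.3, 9.08 and 8.42 in nrpe1-11. In edgeR its log2 fold change was -1.31 ± 0.27 (SE, n = 3 per group) with an adjusted p of 0.267. It was also called when all 42 libraries shared 1 fit.

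Among mom2-1 and the pial lines, a single member was called, and it passed the filter on low values only through pial1/2, where it was high, so its calls are no independent support. The pseudogene AT4G06484 (chr4:3087919-3088878, minus strand) was lower in mom2-1 than in pial1/2 (edgeR adjusted p 0.00093, with 0.475% of all features called in either direction). It was higher in pial1/2 than in pial1-2 (adjusted p 0.00221, 0.47%) and than in pial2-1 (adjusted p 0.0166, 0.324%). Its levels were 4.62, 2.60 and 3.02 CPM in pial1/2 and 4.62, 0 and 1.94 in the Col-0 control, but 0, 0 and 0.0495 in mom2-1. It was at 0 in all 6 libraries of pial1-2 and pial2-1, in all of Col-0 for nrpe1-11 and nrpe1-11, and in 6 of the 7 groups, and at 0.105, 0.0540 and 0 CPM in morc6-3. One Col-0 control library thus lacked its reads, and the rule was met through the other 2. The 3 calls were lost when all 42 libraries shared 1 fit (adjusted p 0.0904, 0.0767 and 0.0819), and the call against pial2-1 was also lost without pial1/2 replicate 2 or without pial1/2 replicate 3.

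Between mom2-1 and the single pial mutants, 0 of 132 members were called by edgeR or DESeq2. In edgeR, 0.127% of all features were called against pial1-2 and 0.101% against pial2-1. At an unadjusted p under 0.05 in edgeR there were 11 members against pial1-2 and 1 against pial2-1. The share of all features at that level was not counted, so nothing is read from these counts. Without mom2-1 replicate 2, JAZ7 was called against pial1-2. In pial1/2 against pial2-1, 106 of 133 members had a log2 fold change above 0, with a median of 0.15, but 1 library decided this direction. Without pial2-1 replicate 1 there were 51 above 0 with a median of -0.038, and without pial1/2 replicate 3 there were 61 with a median of -0.020. With the replicate number as a block, more members had an unadjusted p under 0.05. The count went from 5 to 53 in pial1/2 against pial2-1 and from 11 to 27 in mom2-1 against pial1-2. It went from 1 to 10 in mom2-1 against pial2-1 and from 3 to 35 in mom2-1 against pial1/2. The calls stayed at 1, 0, 0 and 1 in this order. The change over all features was not counted, so the rise is not read as a trait of the members.

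A further pair of comparisons set mom2-1 and pial1/2 against Col-0 for nrpe1-11, and was added with the levels known. In these the genotype and the set of libraries cannot be told apart. In mom2-1, 107 of 132 members were higher and 0 lower (8.47% of all features in each direction), with a median log2 fold change of 1.94. In pial1/2, 110 of 133 were higher and 0 lower (8.71% of all features higher and 8.39% lower), with a median of 2.07, and the median over all features was -0.01 in both. CML38 was at 31.9, 32.4 and 57.6 CPM in mom2-1 against 0.781, 1.04 and 1.26 in Col-0 for nrpe1-11, a log2 fold change of 5.35 ± 0.33 (edgeR adjusted p 4.3e-05, 3 of 3 libraries). AT2G15960, a stress-induced gene, was at 153, 171 and 229 CPM against 3.35, 11.4 and 9.15 (log2 fold change 4.59 ± 0.43, edgeR adjusted p 0.000193). GDPD2 had a log2 fold change of -1.45 ± 0.69 and an edgeR adjusted p of 0.112.

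The difference between the sets was not limited to the members. In mom2-1 against Col-0 for nrpe1-11, where 8.47% of all features were called in each direction, 15 of 18 rapid stress genes tested were higher and 0 lower, with 4 members on that list. On lists without members, 12 of 18 cold genes were higher and 1 lower, and 8 of 15 salicylic acid genes were higher and 1 lower. Of the clock genes, 6 of 11 in the evening list were higher and 0 lower, and 11 of 14 in the morning list were lower and 1 higher. Lower were also 9 of 10 flavonoid, 8 of 9 heat shock and 5 of 5 photoperiodic flowering genes. The 3 shoot markers summed to 26232 to 31881 CPM in the 6 libraries of the nrpe1-11 set against 19126 to 22085 in the Col-0 control. The 3 root markers summed to 82.2 to 109 against 44.6 to 46.6. In mom2-1 against Col-0 for nrpe1-11, 1 shoot marker was called higher and 1 lower, and 1 root marker lower. The sums thus do not show that the markers of a tissue moved together. The part of these differences in the member levels was not tested.

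Within each group the members also differed by replicate number. The sum of their CPM was lowest in replicate 1 in 14 of 14 groups and highest in replicate 3 in 13 of 14, the exception being nrpe1-11, where replicate 2 was highest. The highest sum was 1.07 (pial1-2) to 3.22 (Col-0 for nrpe1-11) times the lowest in a group. Single members did not all follow the sum. In pial1-2, 63 members were lowest in replicate 3 and 48 in replicate 1, and 75 were highest in replicate 2. A fit over the 18 libraries of the 6 groups outside the rule, with the group as a term and added with the values known, compared replicate 3 with replicate 1. Without a fold minimum, 38 of 133 members were higher in replicate 3 (edgeR adjusted p under 0.05, 1.41% of all features) and 0 lower (1.19%). With a 2-fold minimum 3 were higher (0.034%). The median member had a log2 fold change of 0.59, and the median over all features was -0.01. Over all 42 libraries, which include the 24 that chose the members, the count was 118 (6.92% of all features higher). What a number marks is not stated, and its cause was not tested.

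**Figure D4:**
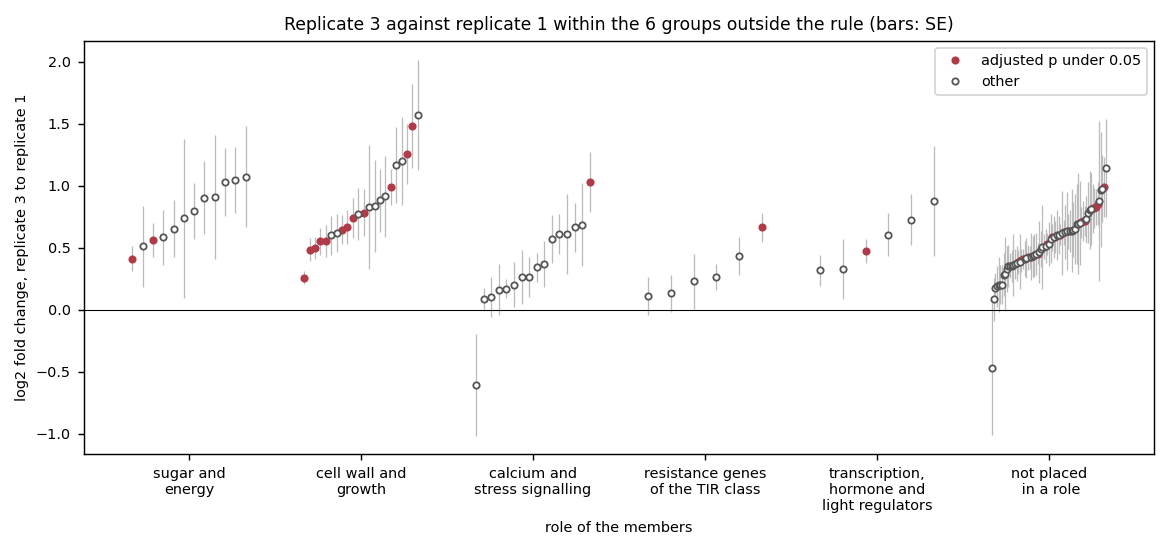
Log2 fold change of each member in replicate 3 against replicate 1 within groups (points) with its SE (bars), over the 18 libraries of the 6 groups outside the rule and by role, filled where the adjusted p is under 0.05. Of 133 members, 38 are filled and all of these lie above 0, with 12 of them in the cell wall group, and JAZ7 and AT4G06484 are the points below 0.

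The members that passed were spread over the roles. They came to 12 of the 22 cell wall genes, 2 of 12 sugar and energy genes, 1 of 16 signalling genes, 1 of 6 TIR genes, 1 of 6 regulators and 21 of the 71 members without a role. XTR6 had a log2 fold change of 1.48 ± 0.34 (SE, 6 groups, edgeR adjusted p 0.04), EXLA1 one of 1.25 ± 0.24 (adjusted p 0.0225) and DREB26 one of 1.03 ± 0.24 (adjusted p 0.0424). PHI-1 at 1.57 ± 0.45 (edgeR adjusted p 0.0761) and TCH4 at 1.201 ± 0.36 (adjusted p 0.0877) had large values that did not pass. JAZ7 at -0.61 ± 0.41 and AT4G06484 at -0.47 ± 0.54 were the only members below 0. In Col-0 for nrpe1-11, replicate 1 was lowest in 125 members, while it was lowest in 46.3% of expressed genes, and BT2 was at 9.23 CPM in it against 169 and 313 in the other 2 libraries.

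ChIP-seq peaks of the proteins under study were counted over each gene and its 500 bp upstream. The peaks came from unopened flower buds of tagged lines and not from seedlings. A peak had to be found in both replicates, except for PHD3, where the list of the FLAG-tagged line alone was used. The study left out peaks often found in Col-0 plants with the FLAG antibody. No such filter was applied here, and whether the lists used already lacked those peaks is not known. Such peaks may thus remain in the AIPP3, PHD1 and PHD3 counts. AIPP3, a BAH-domain protein, had a peak at 34 members (25.6%, against 12.0% of all expressed genes), and PHD3, its partner with a PHD finger, at 53 (39.8%, against 24.1%). MORC6 had one at 24 (18.0%, against 10.2%), PIAL2 at 14 (10.5%, against 4.76%) and PHD1 at 0 (against 0.0572%). The PHD1 list held only 14 peaks found in both replicates, so its count of 0 says little. The members were more highly expressed than most genes, with a median of 66.3 CPM against 17.5 in the Col-0 control. Among the 67 members of middle level (30.0 to 190 CPM), the shares were 17.9% for AIPP3 against 17.0% of 5629 other genes of that level, 40.3% against 35.5% for PHD3, 14.9% against 12.1% for MORC6 and 7.46% against 5.05% for PIAL2. The gaps were thus smaller at this level than over all expressed genes, and no difference was tested.

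In all, 70 members had a peak of at least 1 of the 5 proteins and 63 had none, and 29 had both AIPP3 and PHD3. An overlap of 1 bp was enough, so a peak counted here need not lie mainly within the member. The strongest PHD3 peak overlapped ERD15, with a -log10 q of 128, followed by those at AT1G63860 with 115 and XTH9 with 107. The one at AT1G63860 (chr1:23700992-23701706) crossed the 3′ end of the gene and lay partly outside it. The strongest AIPP3 peak lay at AT1G19380 (44.8), the strongest PIAL2 peak at AT1G11380 (88.4) and the strongest MORC6 peak at AT2G15960 (95.7). That PIAL2 peak was wide (chr1:3822482-3832980). When the 500 bp upstream alone were searched, 4 members had an AIPP3 peak (3.01%, against 3.32% of expressed genes) and 7 a PHD3 peak (5.26%, against 7.09%). A MORC6 peak was there in 17 (12.8%, against 7.74%) and a PIAL2 peak in 11 (8.27%, against 3.34%).

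**Figure D5:**
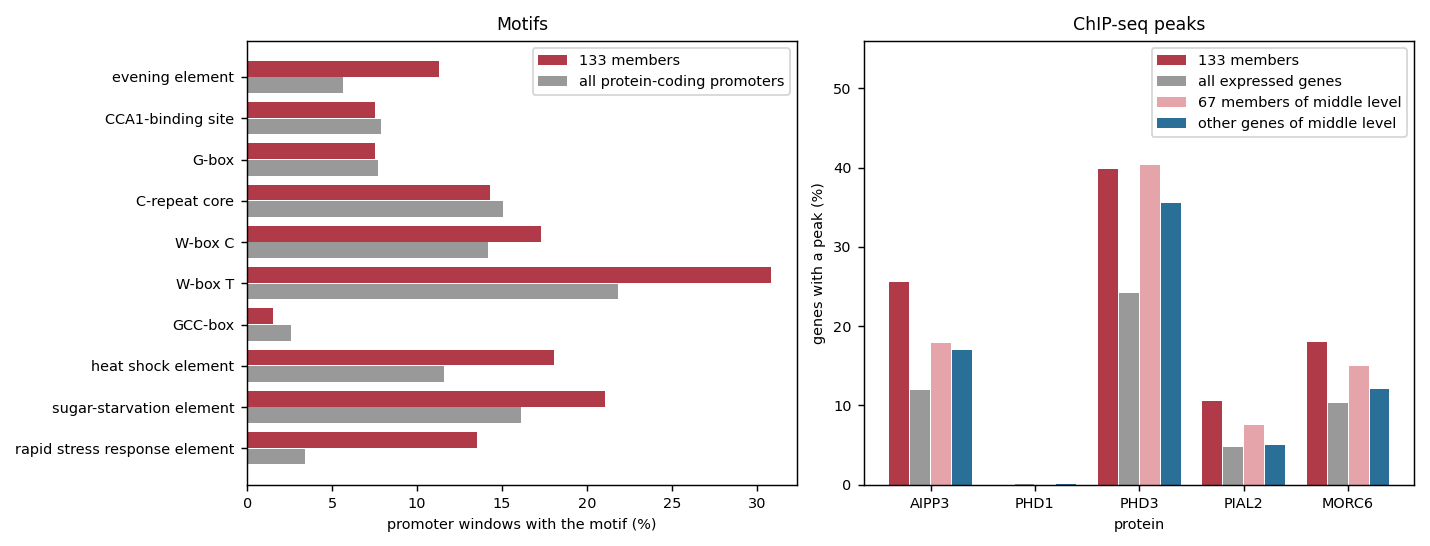
Left, share of promoter windows (%) that hold each motif, for the 133 members (red) and all protein-coding promoters (grey). Right, share of genes (%) with a ChIP-seq peak of each protein for the members, all expressed genes, the 67 members of middle level and other genes of that level, where the last 2 bars differ by less than the first 2.

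Promoter windows of 250 bases before to 50 after the annotated start were searched for known short motifs on both strands. The letters CGCGTT, the rapid stress response element that is found at wound- and touch-inducible genes, were in 18 members (13.5%). They were in 3.40% of all protein-coding promoters and in 4.26% of other genes of middle level (30.0 to 190 CPM). Where a second share follows below, it is over those middle-level genes, while the members counted are of all levels. The evening element AAATATCT, which clock proteins of the MYB class bind, was in 15 (11.3%, against 5.65% and 7.07%). The W-box TTGACT was in 41 (30.8%, against 21.8% and 21.2%) and the heat shock element GAANNTTC in 24 (18.0%, against 11.6% and 11.0%). The sugar-starvation letters TATCCA were in 28 (21.1%, against 16.1% and 18.3%), and the other W-box TTGACC in 23 (17.3%, against 14.2% and 14.4%). Against all promoters alone, the remaining shares were close, with CCGAC, the C-repeat core, in 19 (14.3%, against 15.0%), the G-box CACGTG in 10 (7.52%, against 7.68%), the CCA1 site AAAAATCT in 10 (7.52%, against 7.88%) and the GCC-box GCCGCC in 2 (1.50%, against 2.57%). The searches for CGCGTT and TATCCA were added with the members known. These are matches of letters and not sites of binding, and no share was tested.

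The genes with CGCGTT came from several roles, with ERD15, CMPG1, PHI-1, EXLA1, XT1, RALFL22 and PUP18 and 4 of the 6 TIR genes among them. With the 250 bases upstream alone, 12 members held it (9.02%, against 2.59% of all protein-coding promoters). RALFL22, PUP18 and the TIR genes WRR4 and AT5G22690 then did not. The windows around the match are shown for 7 of them, since this motif stood furthest from the background, and the capitals mark CGCGTT or its reverse complement. Each is read 5′ to 3′ on the strand of the gene from the RefSeq genome TAIR10.1.
ERD15 (chr2:17269105-17269150, plus strand): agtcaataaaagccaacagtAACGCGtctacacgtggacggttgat
PHI-1 (chr1:12851863-12851908, plus strand): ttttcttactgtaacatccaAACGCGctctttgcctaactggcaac
EXLA1 (chr3:16896010-16896055, plus strand): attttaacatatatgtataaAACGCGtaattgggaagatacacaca
XT1 (chr3:23200998-23201031, plus strand): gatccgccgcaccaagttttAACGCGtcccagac
CMPG1 (chr1:24637068-24637113, plus strand): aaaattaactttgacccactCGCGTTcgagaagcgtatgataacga
AT1G63860 (chr1:23706144-23706189, minus strand): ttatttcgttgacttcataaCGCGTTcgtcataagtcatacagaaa
AT1G63750 (chr1:23650772-23650817, plus strand): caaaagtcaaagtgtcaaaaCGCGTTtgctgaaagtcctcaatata
The match lay 14 (XT1) to 136 (EXLA1) bases before the start in these genes, and AT1G63860 and AT1G63750 had 2 copies each upstream.

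The evening element was found at AT3G15450, BT1 and BT2 of the sugar and energy group and at ERD15. The windows of these 4 are shown because these genes had the levels described above, with the capitals on AAATATCT or its reverse complement.
AT3G15450 (chr3:5212775-5212822, plus strand): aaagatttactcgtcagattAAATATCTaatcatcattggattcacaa
BT2 (chr3:17910889-17910936, minus strand): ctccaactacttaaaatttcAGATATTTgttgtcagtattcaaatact
BT1 (chr5:25335571-25335615, minus strand): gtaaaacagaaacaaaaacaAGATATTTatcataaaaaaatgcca
ERD15 (chr2:17269013-17269060, plus strand): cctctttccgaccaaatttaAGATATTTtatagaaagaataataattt
BT2 and AT3G15450 were low in all 7 groups and in both groups of the nrpe1-11 set, while BT1, with the same letters, was at 300.4 CPM in Col-0 for nrpe1-11. The GC content of the member windows had a median of 30.7%, against 32% for all protein-coding promoters.

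The members had fewer exons than expressed genes but a like length. A single exon was annotated for 25.6% of them, against 13.5% of expressed genes, and the median number of exons was 3 against 5, while the median gene length was 2399 bp against 2437 bp. They were spread over all 5 chromosomes, with 38 on chromosome 1, 24 on chromosome 2, 19 on chromosome 3 and 26 on each of chromosomes 4 and 5. The only pair of neighbours was AT5G54710 and AT5G54720, ankyrin repeat genes 784 bp apart on chromosome 5, which had mean levels of 25.5 and 4.90 CPM in the Col-0 control and 4.18 to 10.1 and 0.661 to 1.77 in the 7 groups.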

How the data were processed

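RNA-seq was from whole 12-day-old seedlings, 3 libraries in each of 14 groups. The authors aligned reads to TAIR10 with Bowtie2, estimated expression with RSEM, and deposited an expected count and a TPM per gene. Peaks were called by the authors with MACS2 2.1.2, and the deposited lists give −log10 q per peak. The submitters' processing notes name Bowtie2 2.4.2 and SAMtools 1.15.

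From the expected counts, CPM was computed with the total over all 64790 features listed, and the AT1G to AT5G genes were then kept. Members and lists were chosen with earlier results of these data known. Expected counts were rounded and fitted with edgeR 4.0.16 in R 4.3.3 (TMM, features of at least 1 CPM in at least 2 libraries), one pair of groups at a time, after the code had been tested on simulated data. DESeq2 1.42.0, a replicate block, other thresholds and leaving out each replicate were alternatives. The comparisons with Col-0 for nrpe1-11 and the replicate-number fit were added later. Genes named are the 12 highest in the Col-0 control, the 10 with the largest smallest ratio, those on a list, near the threshold, extreme in mom2-1 or pial1/2, or called, and further genes were named by role after their values were seen. Replicate 1 peaks were kept where replicate 2 had a peak sharing 1 bp or more (for PHD3 the FLAG list was taken whole), and were assigned to a gene or its upstream 500 bp by the same overlap. Promoters were read from the RefSeq genome TAIR10.1. Same-numbered libraries deviated together in every pair (r of 0.265, 0.118 and 0.188) only for mom2-1 against pial1/2. Values reported are from fits without the block, and for that comparison the block kept the 1 call (AT4G06484, edgeR adjusted p 0.000455).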

Additional observations from a re-analysis of the deposited data

How the results depend on the processing

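The number of members depended on the rule. Without the 0.5 CPM offset 344 genes met it, at a 1.5-fold threshold 455 and at 3-fold 23, and all 133 were kept in the first 2. Leaving out libraries gave 84 to 201 members. Without replicate 1 of all 7 mutant groups there were 84 (83 shared), without replicate 3 of all 7 there were 201 (132 shared), and without Col-0 control replicate 1 there were 183. TMM-scaled CPM gave 146 (132 shared) and TPM 143 (129 shared). Without a replicate, the median log2 ratio ranged from -0.16 to 0.09 in mom2-1, -0.031 to 0.15 in pial1-2, -0.20 to 0.14 in pial2-1, -0.030 to 0.26 in pial1/2 and -2.11 to -1.69 in Col-0 for nrpe1-11. For nrpe1-11 against its own Col-0, DESeq2 and the fit of all 42 libraries each called 1 member, and leaving out a replicate gave 0 to 1. In the fit of all 42 libraries the calls of mom2-1 against pial1/2, pial1/2 against pial1-2 and pial1/2 against pial2-1 came to 0. Leaving out a replicate gave 0 to 1 calls for mom2-1 against pial1-2 and for pial1/2 against pial2-1. Against Col-0 for nrpe1-11 it gave 96 to 114 for mom2-1 and 101 to 119 for pial1/2. At these ends, 1523 of 19862 and 1790 of 19873 features were higher for mom2-1, and 1561 of 19912 and 1850 of 19915 for pial1/2. With the replicate number as a block, the calls were 0 for nrpe1-11 and 0 for mom2-1 against pial1-2 or pial2-1. They were 1 each for mom2-1 against pial1/2, pial1/2 against pial1-2 and pial1/2 against pial2-1. Against Col-0 for nrpe1-11 they were 112 for mom2-1 (1716 of 19965 features higher) and 116 for pial1/2 (1783 of 20022). Thus no count of calls moved by over 1.5 times under the block. Counts of members at an unadjusted p under 0.05 were higher under it in the 5 comparisons among mom2-1 and the pial lines. The same count over all features was not made. With the 500 bp upstream alone, 4 members had an AIPP3 peak (3.01%, against 3.32% of expressed genes) and 7 a PHD3 peak (5.26%, against 7.09%). In that span 11 had a PIAL2 peak (8.27%, against 3.34%) and 17 a MORC6 peak (12.8%, against 7.74%). With all replicate 1 peaks, 16 had a PHD1 peak (12.0%, against 7.33% of expressed genes). A PIAL2 peak was then at 53 (39.8%, against 22.8%) and a MORC6 peak at 48 (36.1%, against 23.0%). With 250 bases upstream alone, 12 members held CGCGTT (9.02%, against 2.59% of all protein-coding promoters). The CCA1 site was then in 6 (4.51%, against 6.69%) and the GCC-box in 1 (0.752%, against 1.87%). The replicate-number fit gave 118 members in all 42 libraries (6.92% of all features higher) and 119 without nrpe1-11 and its Col-0 (6.65%). It gave 117 without the Col-0 control (6.07%), and 3 with a 2-fold minimum in the 18 libraries (0.034%). For single genes, 41 values lost the threshold and 0 reversed, and AT4G06484 fell out of the rule without Col-0 control replicate 1 (smallest ratio 1.76). The causes were not tested. Depth limits AT4G06484 and other genes of few reads.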
